A study of Mus musculus with 2 samples.

Results

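The 9 genes described here encode parts of cartilage matrix that are not collagen, and their RNA was measured in the limbs of mouse embryos. They were chosen by name (Acan, Comp, Matn1, Matn2, Matn3, Matn4, Hapln1, Snorc and Cnmd), with no threshold on any measured value, and all 9 were found among the 43346 Ensembl genes of the deposited tables, with 19 annotated transcripts. The study holds 1 group of 2 total RNA-seq libraries, labelled biological replicates 1 and 2, from limb tissue of strain B6NCrl at embryonic day 14.5. According to the labels a sample is the 4 limbs of a pup, its sex is given as pooled, and the samples carry 1 donor identifier, with equal numbers for pup and for pregnancy, but differ in collection day. They were taken as separate embryos, an assumption on which each SD below rests. The source label reads mixed sex embryo, and the labels do not settle whether a sample is 1 embryo or a pool. Each SD is therefore a spread between 2 libraries and cannot be read as one between embryos. Starting RNA was 10 ng with a size range above 200 nt, and spike-in RNAs were added. No treatment, mutation or second condition exists, so the design allows a description of levels, of ratios within a library and of the difference between the libraries.

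Cartilage resists compression because aggrecan, a very large proteoglycan coated with chondroitin sulfate chains, draws water into a collagen network. Aggrecan (Acan) binds the long sugar hyaluronan, and link protein (Hapln1) locks that bond in place. Matrilins (Matn1 to Matn4) and cartilage oligomeric matrix protein (Comp, a thrombospondin) are multi-subunit adaptors that tie proteoglycans to collagen fibrils. Snorc is a small transmembrane chondroitin sulfate proteoglycan of chondrocytes, and Cnmd encodes chondromodulin, a membrane protein whose released part keeps vessels out of cartilage. In the limb at this stage the digits and long bones are still largely cartilage models.

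Several of these genes make more than 1 transcript, and the stretches in which the forms differ are shown because the transcript values below turn on them. Sequences are those of GENCODE M21 transcripts on mm10, 5′ to 3′, and capitals mark the stretch named. Matn2-202 holds 57 coding bases (19 codons, chr15:34433033-34433089, plus strand) that Matn2-201 lacks. Cnmd-203 holds 12 coding bases (4 codons, chr14:79642063-79642074, minus strand) that Cnmd-201 lacks. Matn2-202 also gains 5 coding bases and lacks 2 elsewhere. Both are shown with 30 bases on each side.
Matn2-202 with its extra stretch: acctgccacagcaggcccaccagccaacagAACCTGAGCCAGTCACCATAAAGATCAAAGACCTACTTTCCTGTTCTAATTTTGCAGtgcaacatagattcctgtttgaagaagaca
Cnmd-203 with its extra stretch: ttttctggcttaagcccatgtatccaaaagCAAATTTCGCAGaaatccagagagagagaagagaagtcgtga

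Matn4-201 has 4 coding exons of 123 bases, which in matrilins encode EGF-like repeats, and Matn2-201 has 10. Matn4-204 lacks the first of the 2 exons shown here (chr2:164399732-164399854, minus strand), and Matn4-203 lacks both (the second is at chr2:164397164-164397286).
Matn4 first skipped exon: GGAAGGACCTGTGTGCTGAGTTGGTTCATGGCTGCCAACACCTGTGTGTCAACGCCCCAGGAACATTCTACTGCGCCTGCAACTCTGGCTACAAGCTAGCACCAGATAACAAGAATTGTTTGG
Matn4 second skipped exon: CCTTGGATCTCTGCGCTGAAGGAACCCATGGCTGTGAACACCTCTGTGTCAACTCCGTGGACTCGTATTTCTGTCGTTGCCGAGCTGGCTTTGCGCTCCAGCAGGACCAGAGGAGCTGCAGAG
Matn4-205, annotated as a retained intron, reads from an exon into 2807 bases of a 3215-base intron, and the border is at chr2:164396695-164396754 on the minus strand, with intron bases in capitals.
Matn4-205 exon and intron border: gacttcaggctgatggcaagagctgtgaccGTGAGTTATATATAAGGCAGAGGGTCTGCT

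RefSeq (GRCm38.p6, the assembly mm10 names) gives Matn4 start sites 342 bases apart, and windows of 250 bases before to 50 after a start were available for 6 members: Acan, Cnmd, Hapln1, Matn1, Matn3 and Matn4. Windows of Matn4 are shown because its transcripts differ in their first exon, and that of Matn1 because it is the most abundant matrilin and its level differed between the libraries in the other direction. Capitals mark GGGCGG, the GC box, on either strand.
Matn4 distal start, chr2:164405111-164405410, minus strand: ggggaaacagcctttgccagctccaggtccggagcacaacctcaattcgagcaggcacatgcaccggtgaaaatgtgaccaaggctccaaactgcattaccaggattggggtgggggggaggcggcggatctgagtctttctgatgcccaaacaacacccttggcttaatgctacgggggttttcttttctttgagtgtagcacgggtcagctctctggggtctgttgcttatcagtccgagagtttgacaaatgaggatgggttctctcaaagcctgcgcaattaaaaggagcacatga
Matn4 proximal start, chr2:164404769-164405068, minus strand: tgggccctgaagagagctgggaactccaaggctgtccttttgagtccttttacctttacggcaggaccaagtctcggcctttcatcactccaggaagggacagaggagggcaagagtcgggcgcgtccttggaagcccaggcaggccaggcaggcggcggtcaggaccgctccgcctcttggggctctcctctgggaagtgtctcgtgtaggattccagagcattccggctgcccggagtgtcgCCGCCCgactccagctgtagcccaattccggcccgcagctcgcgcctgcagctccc
Matn1, chr4:130944135-130944434, plus strand: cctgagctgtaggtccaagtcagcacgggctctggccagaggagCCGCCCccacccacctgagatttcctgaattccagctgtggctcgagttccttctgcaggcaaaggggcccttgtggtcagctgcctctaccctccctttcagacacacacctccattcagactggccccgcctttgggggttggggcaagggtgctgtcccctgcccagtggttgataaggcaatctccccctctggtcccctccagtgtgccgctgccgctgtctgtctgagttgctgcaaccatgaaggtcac
The GC box occurred 3 times in the Acan and Matn3 windows, once in those of Matn1 and the proximal Matn4 start, and in 35.7% of the 32851 windows of all genes. ACAAT, the core word bound by SOX factors, was searched on both strands and found once, in Hapln1, against 31.0% of all windows. That match is at position −249 from a RefSeq start at 89540636. This start lies inside the Hapln1 gene model used here, which begins at 89539796. TATAAA was in none of the 7 windows, against 13.6% of all. A match is a description of these letters only.

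All 9 genes were well above the detection minimum of 1 TPM (a level per transcript length, scaled so that the libraries have equal sums) in both libraries. Their sum was 491 TPM in the first library and 422 TPM in the second, and they took between 339 and 5641 expected counts each. The libraries totalled 34193161 and 32879425 expected counts. Whether a lower level in a tissue library reflects fewer cells of a type or less RNA per cell cannot be told apart. Counts and levels ranked the genes differently because their transcripts differ in length. Acan, whose 7355-base transcript codes for 2132 residues, had the most counts (5641 and 4651) at a level of 33.8 and 29.9 TPM. Snorc, with a 478-base main transcript of 121 codons, had the fewest counts (471 and 339) at the higher level of 53.8 and 41.4 TPM.

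**Figure D1:**
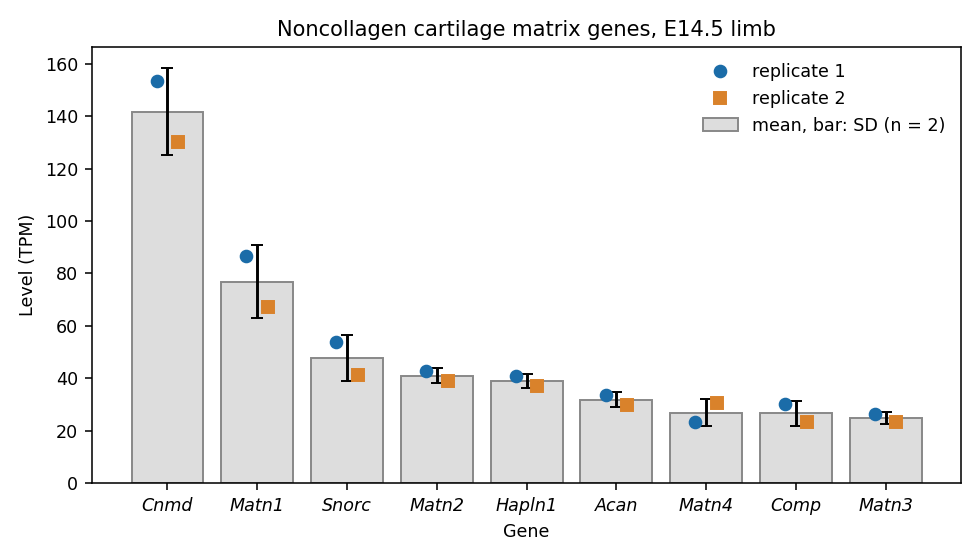
Levels in TPM of the 9 noncollagen cartilage matrix genes, ordered by mean. Grey bars are means with the SD over n = 2 libraries, and points are the libraries. Cnmd and Matn1 stand above the rest in both libraries, and the points of Matn4 lie in the reverse order of the others.

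Cnmd was the highest of the group. Its values were 153 TPM in the first library and 130.0 TPM in the second (142 ± 16.6, SD, n = 2), which placed it 956th of 13191 protein-coding genes detected in both libraries and made it 31.2% and 30.8% of the group's summed level. Cnmd lies on chromosome 14 (79637690 to 79662170). Its closest relative Tnmd, tenomodulin of tendon, was at nearly the same level, 135 and 125 TPM, with a log2 ratio of Cnmd over Tnmd of 0.12 ± 0.09. The Cnmd level includes Cnmd-202, annotated as a retained intron, at 13.2 and 14.5 TPM, so this ratio is not one of coding forms alone.

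Matn1, the matrilin typical of cartilage, followed at 86.7 and 67.2 TPM (76.9 ± 13.8, chromosome 4, 130944385 to 130955475). Matn2, a matrilin found widely in connective tissue, stood at 43.0 and 39.0 TPM (41.0 ± 2.83, chromosome 15, 34306677 to 34436273). Matn3, which is largely restricted to cartilage, stood at 26.4 and 23.3 TPM (24.8 ± 2.19, chromosome 12, 8947929 to 8972028). Matn1 exceeded Matn3 by 1.62 ± 0.13 on the log2 scale, or 3.07-fold. Matn4 was the only matrilin with the higher value in replicate 2, at 23.2 and 30.6 TPM (26.9 ± 5.23, chromosome 2, 164389393 to 164405160). By gene-level TPM the makeup of the matrilin RNA pool therefore differed between the libraries. For Matn4 that level includes Matn4-205, annotated as a retained intron, at 4.33 and 6.40 TPM. Matn1 was 48.3% of the summed level of the 4 matrilins in replicate 1 and 42.0% in replicate 2, and Matn4 was 13.0% and 19.1%, while Matn2 (24.0% and 24.4%) and Matn3 (14.7% and 14.5%) kept their shares to within 1 percentage point. The log2 ratio of Matn1 over Matn4 was 1.90 in replicate 1 and 1.13 in replicate 2, and that of Matn4 over Matn2 was −0.89 and −0.35.

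The aggrecan aggregate had near-even RNA levels of core protein and link protein. Hapln1 stood at 41.0 and 37.1 TPM (39.0 ± 2.72) and Acan at 33.8 and 29.9 TPM (31.8 ± 2.79), so that Acan was below Hapln1 by a log2 ratio of −0.29 ± 0.03, which was −0.28 in one library and −0.31 in the other. Acan was 18.4-fold below Col2a1, the main collagen of cartilage, at a log2 ratio of −4.20 ± 0.13. Snorc, at 47.6 ± 8.76 TPM (chromosome 1, 87470271 to 87475482), exceeded Acan by 0.57 ± 0.14. Comp stood at 30.1 and 23.2 TPM (26.7 ± 4.86, chromosome 8, 70373558 to 70382066) and was level with its relative Thbs4, which is abundant in tendon and muscle attachments, at 29.5 and 24.6 TPM. Their log2 ratio was 0.03 in replicate 1 and −0.08 in replicate 2.

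In the order of mean levels, Cnmd, Matn1, Snorc, Matn2 and Hapln1 took ranks 1 to 5 in each library. Cnmd was above Matn1, Matn1 above Snorc, and Hapln1 above Acan in both libraries of each pair. The ranges of Snorc and Matn2 overlapped, as did those of Matn2 and Hapln1. No full order of Acan, Matn4, Comp and Matn3 held in each library, although Acan was above Comp and above Matn3 in each. Matn4 ranked 9 in replicate 1 and 6 in replicate 2.

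Genes for lecticans, the proteoglycan family of aggrecan, sit beside genes for link proteins on 4 chromosomes, and their levels in the limb were uneven. Acan (chromosome 7, 79053483 to 79115099) ends 2 bases from Hapln3, yet Hapln3 stood at 0.980 and 1.08 TPM, and Hapln1 exceeded it by 5.11 ± 0.19 on the log2 scale. Hapln1 (chromosome 13, 89539796 to 89611652) lies 43659 bases from Vcan, the gene for versican, a lectican of loose embryonic matrix, with no protein-coding gene between. Vcan stood at 87.8 and 103.7 TPM and exceeded Acan in both libraries, with a log2 ratio of Acan over Vcan of −1.37 in replicate 1 and −1.79 in replicate 2. The brain lecticans Ncan and Bcan and their neighbours Hapln4 and Hapln2 were all below 0.4 TPM in each library, with at most 57 counts for Ncan and between 1 and 19 counts for the other 3. By posterior mean TPM, a second deposited estimate, Bcan stood at 0.880 and 0.780 and Hapln2 at 0.390 and 0.420, so the level of these low genes depends on the estimate used. The models of Acan and Hapln3 share no base, and no source used here gives the strand of the libraries. Whether reads past the annotated end of 1 of these genes were counted for the other was not tested.

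**Figure D2:**
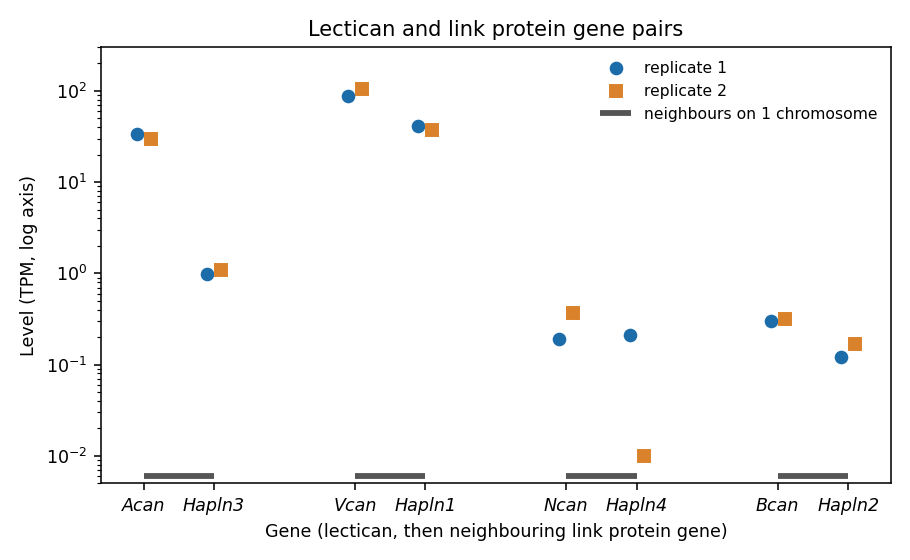
Levels in TPM, on a log axis, of 4 lectican genes and the link protein gene beside each, with points for the libraries. Acan, Vcan and Hapln1 lie between 29.9 and 103.7 TPM, Hapln3 near 1 TPM, and the brain genes below 0.4 TPM, on the TPM column of the tables.

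Transcript tables divided 4 of the genes among several forms, while Acan, Comp, Matn1, Matn3 and Hapln1 had 1 annotated transcript each. Cnmd came mainly as 2 coding forms. Cnmd-203, with the 4 added codons, held 47.8% and 51.5% of the gene's TPM in replicates 1 and 2 (49.7 ± 2.61, SD, n = 2), and Cnmd-201, without them, held 43.0% and 37.1% (40.1 ± 4.19). These forms also differ by 86 bases at the 5′ end, so the division does not rest on the 12 bases alone. Cnmd-202, annotated as a retained intron, held 8.61% and 11.2%. Cnmd-201 stood at 66.0 and 48.2 TPM, with deposited intervals of 58.4 to 71.1 and 41.2 to 52.6 that did not overlap, and Cnmd-203 at 73.4 and 66.9 TPM, with overlapping intervals of 64.3 to 78.1 and 59.0 to 71.5. The confidence level of these intervals is not stated, and the difference between the forms was not tested.

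Matn2-201 held 75.8% and 71.9% of Matn2 (73.8 ± 2.74), and Matn2-202, with the 19 added codons, held 24.3% and 28.1%. At 10.4 and 11.0 TPM, Matn2-202 was close in level between the libraries. For Matn4 the full-length coding form Matn4-201 held 81.4% and 79.1% (80.2 ± 1.61). The shorter forms Matn4-203 and Matn4-204, without 1 or both of the exons printed above, and Matn4-202, which begins at the distal start at 164405160, were each listed at 0 in both libraries. The rest of Matn4, 18.7% and 20.9%, was Matn4-205 with the retained intron, at 4.33 and 6.40 TPM with intervals of 3.75 to 4.74 and 5.64 to 6.90. Matn4-201, at 18.88 and 24.20 TPM, was also higher in replicate 2, but its intervals of 15.17 to 18.99 and 18.96 to 24.14 overlapped. Its TPM in replicate 2 lies above its own interval. Matn4-201 begins 204 bases downstream of the proximal RefSeq start, so its first base is outside the window printed. Exons of Matn4 overlap by 149 bases with Rbpjl on the other strand, which stood at 0.350 and 0.590 TPM, and exons of Matn2 overlap by 70 bases with 9430069I07Rik, which had 0 and 1 counts. Snorc-201, the coding form, held 97.7% and 97.0% of Snorc.

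**Figure D3:**
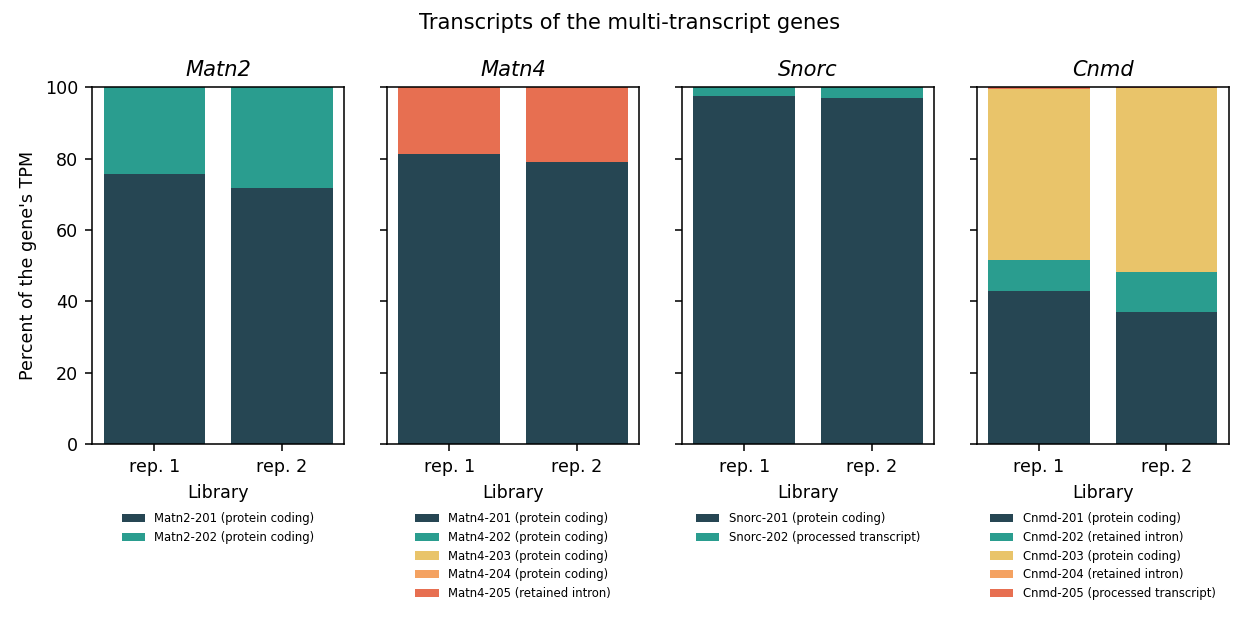
Share of each annotated transcript in its gene's TPM, in percent and stacked, for the 4 genes with several transcripts, with 1 bar per library. Snorc is almost wholly its coding form, Cnmd is divided mainly between Cnmd-201 and Cnmd-203, and Matn4 between Matn4-201 and the intron-retaining Matn4-205.

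Between the libraries, 8 of the 9 genes were lower in replicate 2 and Matn4 was higher. The largest differences were those of Snorc, Comp and Matn1, with log2 ratios of replicate 2 over replicate 1 of −0.45, −0.45 and −0.44, or 1.37-fold, 1.37-fold and 1.36-fold. Their 95% counting intervals (Clopper-Pearson) ran from −0.66 to −0.25, from −0.56 to −0.34 and from −0.51 to −0.37. Cnmd was lower by a log2 ratio of −0.34 (−0.40 to −0.27), and Acan and Matn3 by −0.26 each. Hapln1 and Matn2 had the smallest differences, both at −0.22. Matn4 had a log2 ratio of 0.35 (0.24 to 0.45), or 1.27-fold. The Matn4 counts include those of the retained-intron form Matn4-205 (399.5 and 551.7), beside 957 and 1145 for coding Matn4-201. The intervals of Hapln1 and Matn2 lay apart from those of Comp and Matn1 and overlapped that of Snorc, which had the fewest counts.

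By an exact binomial test on counts, adjusted by the Benjamini-Hochberg method over 19153 genes, 8 members were called lower (adjusted p from 9.82e-33 for Matn1 to 1.15e-04 for Snorc) and 1 was called higher, Matn4 with an adjusted p of 1.20e-09. Of all genes tested, 14.5% were called lower and 12.9% higher, so that 47.0% of the calls were higher. With total counts in place of TMM scaling that share was 59.9%, and with spike-in counts 69.0%, while the calls of the members were the same. The 19153 genes include those with as few as 10 counts in the sum, where a small difference cannot be called. The members had 339 to 5641 counts per library, so the shares over all genes are not those of genes of like depth. The median log2 ratio of the 9 genes was −0.26, beside 0.00 over all genes tested. This test compares 1 library with 1 library, covers counting error only and has no replicate check. An alternative that adds a spread shared by all genes, estimated from the same 2 libraries (edgeR's exact test with a common dispersion), called 0 of the 9, and 3 (Comp, Matn1 and Snorc) had an unadjusted p under 0.05. That test called 0.491% of 16920 genes lower and 0.177% higher.

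**Figure D4:**
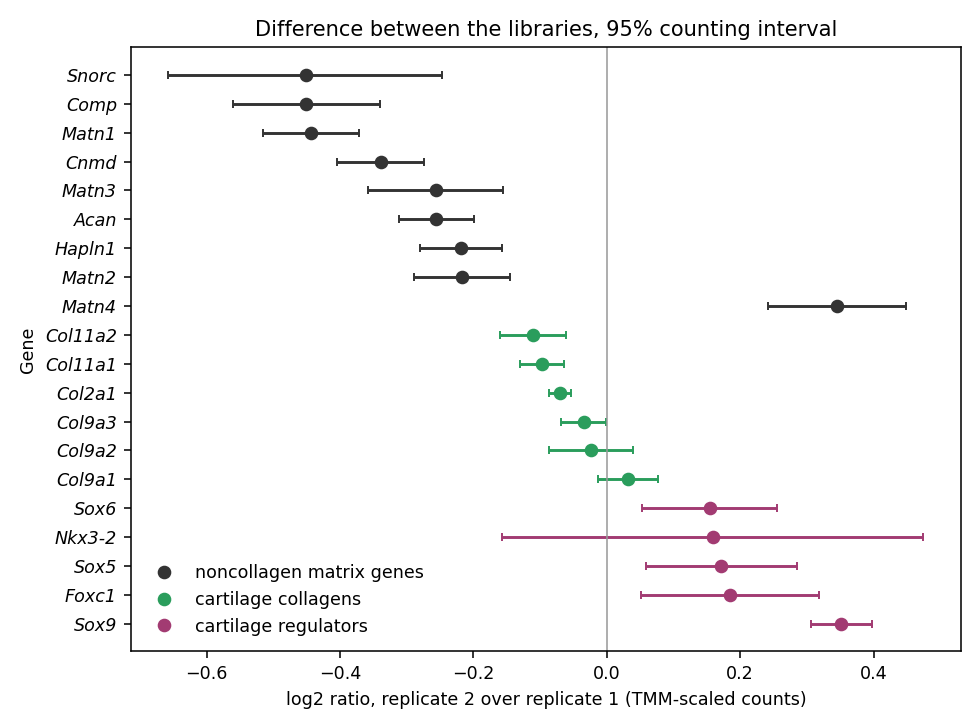
The log2 ratio of replicate 2 over replicate 1 for each noncollagen matrix gene, cartilage collagen gene and cartilage regulator gene, with 95% counting intervals. The members lie from −0.45 to −0.22 apart from Matn4 at 0.35, the collagens from −0.11 to 0.03, and the regulators from 0.15 to 0.35.

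Collagen genes of the same matrix had smaller log2 ratios between the libraries. Of 6 cartilage collagen genes, 3 were called lower (Col2a1, Col11a1 and Col11a2) and the others were not called, with log2 ratios from −0.11 to 0.03 and a median of −0.05. These calls depend on the scaling. With spike-in counts none of the 3 was called and Col9a1 was called higher. Col2a1 stood at 584 and 587 TPM, Col9a3 at 267 and 287 TPM and Col11a1 at 132 and 128 TPM. Col2a1 was thus slightly higher in replicate 2 by TPM, although its log2 ratio of TMM-scaled counts was −0.07. The summed noncollagen genes were below the summed cartilage collagens by a log2 ratio of −1.30 in replicate 1 and −1.56 in replicate 2. Taken relative to the summed collagens in each library, a comparison chosen after the values were seen, the same 8 genes were lower in replicate 2, by log2 differences from −0.41 for Snorc to −0.18 for Matn2, and Matn4 was higher by 0.36. The summed collagens were nearly level, at 1214 and 1244 TPM. These differences therefore restate those of the members in TPM and are no separate support for them.

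Most regulators of the chondrocyte were called higher in replicate 2. Of 5 genes, Sox9, the master regulator of cartilage, its partners Sox5 and Sox6, and Foxc1 were called higher, and Nkx3-2 was not called. Sox9 stood at 75.6 and 101.7 TPM, a log2 ratio of 0.35, the same as that of Matn4. Sox5 stood at 23.3 and 27.5 TPM and Sox6 at 10.8 and 12.6 TPM.

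Among relatives of the members, 4 of 11 genes were called lower (Thbs2, Thbs4, Tnmd and Hapln4, the last on 17 and 1 counts) and Vcan and Ncan were called higher. The median log2 ratio of this list was 0.00. The most abundant of the list after Tnmd were Vcan and Thbs1, and Thbs1, a widely expressed thrombospondin at 76.5 and 82.8 TPM, was not called, except as higher with total or spike-in counts. Of 13 other cartilage matrix genes, Epyc, Mia and Cilp were called lower and Chadl and Cytl1 higher, with a median of −0.10. Mia was not called with total or spike-in counts. Mia stood at 119.9 and 112 TPM, Cytl1 at 96.7 and 114 TPM, and Hspg2, the gene for perlecan, at 51.2 and 53.3 TPM. Epyc, a small proteoglycan of growth cartilage, stood at 29.6 and 19.7 TPM.

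Like most genes tested (13899 of 19153), most enzymes that build the sugar chains of aggrecan were not called between the libraries. Of 25 genes for chain synthesis, sulfation and hyaluronan synthesis, 22 reached 1 TPM in both libraries, 4 were called lower, 3 higher and 18 were not called, with a median log2 ratio of 0.02. Papss1 and Papss2, which make the sulfate donor, stood at 102 and 109 TPM and at 32.9 and 35.2 TPM, Chpf, a chondroitin polymerising factor, at 50.3 and 47.6 TPM, and Impad1, a phosphatase of the sulfation pathway, at 38.4 and 39.5 TPM. Slc26a2, the sulfate transporter of chondrocytes, was called lower, with a log2 ratio of −0.33. With spike-in counts the list had 2 lower and 6 higher calls. Has2 was the hyaluronan synthase gene of highest level, at 1.83 and 2.68 TPM, and was called higher, while Has1, Has3 and the sulfotransferase gene Chst13 were below 1 TPM in both libraries. Of 11 genes for turnover of lecticans and hyaluronan, Cd44 and Cemip were called lower and Adamts1, Adamts15 and Timp3 higher, with a median of 0.01. Hyal2 stood at 93.5 and 99.3 TPM, Timp3, an inhibitor of aggrecan-cutting proteases, at 51.2 and 57.7 TPM, and Adamts1 at 33.1 and 38.3 TPM. The aggrecanase genes Adamts4 and Adamts5 were not called, at 7.79 and 8.16 TPM and at 10.7 and 10.5 TPM. Cemip, which promotes hyaluronan breakdown, was below 1 TPM in both libraries.

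Markers of other cell types also differed between the libraries. All 10 muscle genes were called lower in replicate 2, with summed levels of 3139.7 and 2129.5 TPM, led by the actin genes Actc1 (966 and 695 TPM) and Acta1 (770.0 and 478 TPM) and the myosin light chain gene Myl1 (526 and 359 TPM). Of 7 red cell genes 6 were called lower, with sums of 26941 and 18275 TPM, led by the globin genes Hba-a2, Hbb-bs and Hba-a1, whose near-identical copies can share reads. All 7 epidermal genes were called lower (1551 and 1323 TPM), led by Perp, Krt14 and Sfn, and Krt14 was not called with spike-in counts. Of 6 genes of hypertrophic cartilage, 4 were called lower, with summed levels of 445 and 346 TPM, led by Ibsp at 202 and 150.3 TPM, Spp1 at 150.3 and 102 TPM and Pth1r at 73.1 and 75.5 TPM, the last not called. Col10a1 (13.6 and 12.0 TPM) and Mmp13 (1.10 and 0.67 TPM) were also called lower, and Ihh (4.61 and 5.58 TPM) was not called. Of 6 genes of bone-forming cells, Ifitm5, Alpl and Sp7 were called lower (86.3 and 72.5 TPM summed), of which Alpl was not called with total or spike-in counts. Runx2, among the 3 of highest level with Ifitm5 and Alpl, was not called, at 12.5 and 14.2 TPM, but was called higher with spike-in counts. All 9 genes that define limb mesenchyme were called higher, at 437 and 553 TPM, led by Msx1, Prrx1 and Prrx2, as were 3 of 4 joint genes (401 and 494 TPM), led by Sfrp2, Osr2 and Gdf5. Of 5 tendon genes, Mkx and Kera were called higher and Tnmd lower (413 and 447 TPM). Kera, Tnmd and Fmod had the highest levels, and Fmod was not called at 57.7 and 61.1 TPM. Of these marker genes, 0 were at 0 TPM in a library. Their part in the differences of the members was not tested. By edgeR's exact test, 5 of all 124 genes outside the members were called, all lower.

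**Figure D5:**
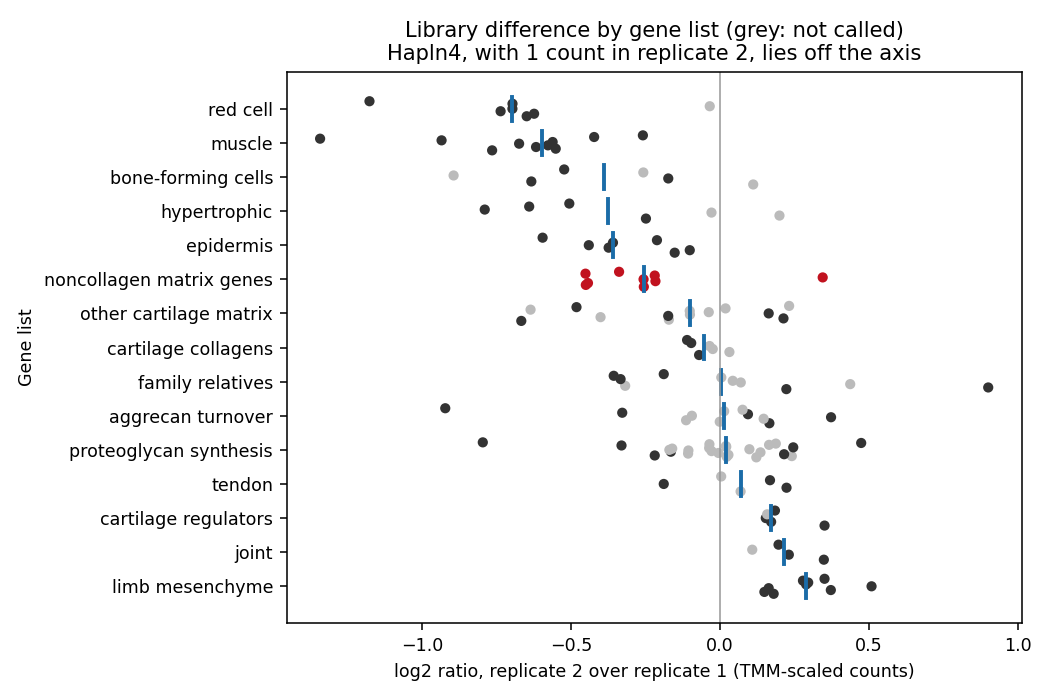
The log2 ratio of replicate 2 over replicate 1 for the genes of each list, 1 point per gene, ordered by the list median (blue line). Points called by the exact binomial test are dark (red for the members) and the others grey. The noncollagen matrix genes, with a median of −0.26, lie between the epidermal and the other cartilage matrix genes, limb mesenchyme has the highest median, and Hapln4 (−4.06) lies off the axis.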

How the data were processed

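Total RNA-seq of 2 limb libraries was used. Expected counts, which are estimated reads per gene or transcript and need not be whole, and TPM values were deposited by the authors, as were each transcript's percent of its gene's TPM and posterior mean TPM, per the file headers. The bounds of the deposited intervals are a score on the TPM scale whose level is not stated per the file headers. Tables rest on mm10 and GENCODE M4 and on alignments to the transcriptome, per text notes deposited beside the tables. The sources used here do not name the aligner, counter or strand. Symbols, positions and transcript models came from GENCODE M21, where 42462 of 43346 identifiers had a symbol. Transcript lengths in the tables differed from M21 for Matn2-201, Comp and Hapln1.

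Expected counts were rounded. Library sizes were scaled by TMM (edgeR 4.0.16, R 4.3.3) without spike-ins. Each gene with 10 or more counts in the sum was tested with a two-sided exact binomial test (scipy 1.17.1) and Benjamini-Hochberg adjustment, at a threshold of 0.05. The test had been checked on simulated counts that held counting error only. That check cannot show how the test behaves with further spread between libraries. An alternative was edgeR's exact test, whose biological coefficient of variation was 0.0992. Ratios within a library used log2(TPM + 0.1), which understates folds of low genes, and with 2 libraries no exact sign-flip p below 0.5 exists, so they have no p. The counting intervals reflect counting error alone and take each read as independent. Molecular identifiers, which would mark copies of 1 molecule, are not mentioned, so these intervals may be too narrow. Expected counts of 8 of the 9 members were whole to within 0.005 in both libraries, Matn4 being the exception.

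Named genes were every member, the genes of the ratios, the 3 genes of highest level in each other list, list genes related to a member that were below 1 TPM in both libraries, and transcripts at 5 percent or more; other names were chosen after their values were seen. The effect of the scaling on single list genes was tabulated after the values were seen. The members, the 14 other lists (124 genes) and the 11 ratios were chosen with earlier results of these data known. DESeq2 1.42.0 gave size factors for an alternative scaling.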

Additional observations from a re-analysis of the deposited data

How the results depend on the processing

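The 8 lower calls and the higher call of Matn4 were the same genes with DESeq2 size factors, total counts or spike-in counts in place of TMM, without the count minimum and with edgeR's default filter. Spike-in scaling moved the median log2 ratio of all genes by 0.06. By edgeR's exact test the calls fell to 0 lower and 0 higher, where 3 members, all lower, had an unadjusted p under 0.05. For the 124 other genes that test gave 5 lower and 0 higher calls, against 46 and 28 by the binomial test, with 26 and 2 at an unadjusted p under 0.05. The binomial counts were 44 and 33 with total counts and 38 and 36 with spike-in counts. Without the count minimum Foxc1, Ncan, Cemip, Mmp13 and Has3 were no longer called. The log2 ratio of Hapln1 over Hapln3 was 4.30 with a pseudocount of 1, since Hapln3 is near 1 TPM, and had no value when genes under 1 TPM in a library were left out. The share of Matn4-201 was 74.0% from posterior mean TPM, which gives the forms listed at 0 a small share. The levels of the 9 members, the ratios and the other leading transcript shares moved by less than 1 SD under posterior mean TPM, as did the ratios under counts per length. Of the 124 other genes, 19 moved by more than 1 SD under posterior mean TPM, Col2a1 among them, and Bcan and Hapln2 by over 1.5 times. Leaving out either library also kept every value within 1 SD, which holds for any mean of 2 values and so shows nothing of stability. No paired analysis was possible because there is 1 group. Depth limits the brain lecticans and their link proteins, with at most 57 counts.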
